A study of Rattus norvegicus with 8 samples.

Results

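The response of enteric glial cells (EGCs) to lipopolysaccharide (LPS) alone was taken from 4 of the 8 RNA-seq libraries of the series, 2 of cells given LPS and 2 of untreated cells. They were chosen by their treatment labels. All cells were EGC/PK060399egfr, a single rat enteric glial line. The LPS group received 1 µg/mL of LPS from E. coli for 24 h with no compound before it, and the Control group received no treatment. The remaining 4 libraries came from cells given THC (0.1 µg/mL, 2 libraries) or THC-COOH (10 nM, 2 libraries) 1 h ahead of the same LPS. They entered the choice of genes tested, the mean levels and the estimate of the spread, and their own values are given only beside single genes. Separate cultures are not stated for the 2 libraries of a group, so p-values measure only the spread between these libraries, which may be technical.

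LPS is the glycolipid of the outer membrane of Gram-negative bacteria. It is sensed by toll-like receptor 4 together with MD-2 and CD14, and the adaptor MyD88 carries the signal to NF-κB, which turns on cytokine, chemokine and adhesion genes. Enteric glia surround the neurons of the gut wall, are recognized by S100B, GFAP and SOX10, and can enter a reactive state during intestinal inflammation. The genes of the deposited tables carry Ensembl rat identifiers, and 0 of the 9848 listed identifiers could be paired with a symbol. The levels of these receptors, targets and glial markers, and hence the labelled cell type, were therefore not checked, and genes are described by their levels.

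Polyadenylated RNA was sequenced by bulk MARS-seq, a method that counts 3' ends of transcripts. Total counts were 879029 and 545779 in the LPS libraries and 752742 and 778832 in the Control libraries, and 715865 to 1559935 in the pretreated libraries. The shallower LPS library, LPS 2, held 9282 genes with a count, against 9560 in LPS 1 and 9429 and 9468 in Control. The 10 most abundant genes took 7.05% to 7.07% of the counts with LPS and 6.89% to 6.90% in Control. Levels are in CPM, the count scaled to the library total after TMM normalization. A lower level in CPM cannot tell fewer cells that express a gene from less RNA of it per cell. Of the listed genes, 7875 were tested, those whose raw count exceeded 10 in 1 or more of the 8 libraries.

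Few genes passed the thresholds for a difference between LPS and Control. A gene was called a differentially expressed gene (DEG) at a Benjamini-Hochberg adjusted p under 0.05 and a fold change above 1.6. By edgeR's quasi-likelihood test 3 genes, 0.0381% of those tested, were DEGs, 1 higher and 2 lower with LPS. The count moved with the libraries used: it was 10 without LPS 1, 5 without Control 1, 3 without LPS 2 and 2 without Control 2, and 1 of the 3 DEGs was kept in each of the first 2 cases. Without the minimum fold 8 genes passed, 0.102% of those tested, of which 6 were higher and 2 lower with LPS. In 7 of these 8 genes the LPS and Control libraries did not overlap. Over all genes tested, both LPS libraries lay above both Control libraries in 1411 genes (17.9%) and below them in 1415 (18%). At an unadjusted p under 0.05 stood 564 genes (7.16%), 299 higher and 265 lower with LPS. Over the 7875 genes the log2 fold change had a median of −0.0058, which TMM scaling holds near 0.

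**Figure D1:**
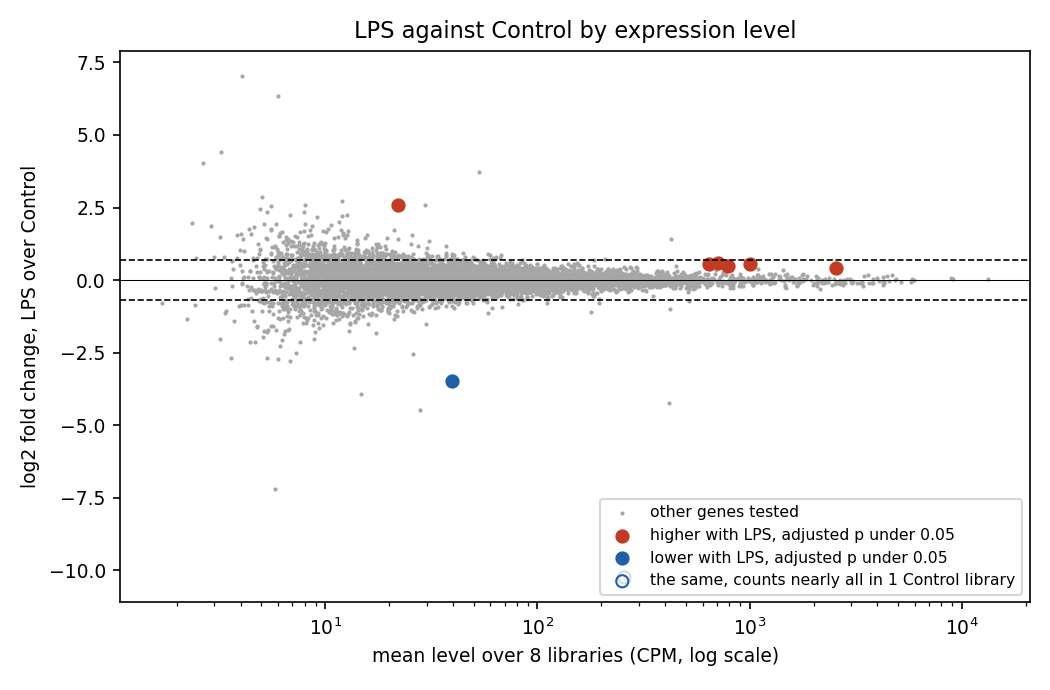
Log2 fold change of LPS over Control (y axis) against the mean level over the 8 libraries in CPM (x axis, log scale) for the 7875 genes tested, with dashed lines at a 1.6-fold change in either direction. Red and blue points are the 8 genes with an adjusted p under 0.05, and the open circle is the one whose counts came almost wholly from 1 Control library. The cloud narrows with the level, and 5 of the 6 red points are abundant genes inside the dashed lines.

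The gene with the smallest p, ENSRNOG00000047737, fell with LPS. Its levels were 10.2 and 5.57 CPM in the LPS libraries, against 106 and 83.1 CPM in the Control libraries. Every Control value was thus far above either LPS value. The raw counts behind these levels were 9 and 3 with LPS and 79 and 64 in Control. The log2 fold change was −3.47 (standard error, SE, 0.46, 95% interval −4.41 to −2.53, adjusted p = 1.04e-05 from edgeR), which is 11.1-fold lower with LPS. The gene is of middle abundance, at rank 3991 of 7875 by mean level. It is the DEG that held by each tool used: the adjusted p was 5.25e-06 with DESeq2 and 0.00448 with limma voom. With 1 of the 4 libraries left out it stayed between 1.12e-05 and 0.00198, with log2 fold changes from −4.05 to −3.19.

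A gene of low level, the fifth by p, was the only DEG that rose. It had 56.8 and 37.1 CPM with LPS, against 8.05 and 7.79 CPM in Control. The LPS libraries lay apart from each other as well as from Control. Its raw counts were 50 and 20 with LPS and 6 in each Control library. Because so few reads stand behind the Control level, the closeness of its Control values does not show a small error. The log2 fold change was 2.59 (SE 0.51, 95% interval 1.53 to 3.65, adjusted p = 0.0116 from edgeR), a 6.02-fold rise. Neither DESeq2 (adjusted p = 0.116) nor limma voom (adjusted p = 0.0979) called it. The call was lost in edgeR without LPS 1, where the adjusted p was 0.310, without Control 1 (0.117) and without Control 2 (0.135).

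The second gene called lower with LPS rests on a single library. It had 1 and 0 raw counts with LPS, against 1526 and 0 in Control, and at most 4 in any pretreated library. Control 1 held 99.8% of its summed CPM over the 8 libraries. The 2 Control libraries disagreed, so the groups overlap. The log2 fold change was −10.241 (SE 7.283, 95% interval −25.317 to 4.835). This interval spans 0, so for this gene the interval and the edgeR test disagree. The adjusted p was 0.0176 from edgeR, 1 from DESeq2 and 0.935 from limma voom. With Control 1 left out the direction turned, on 1 count in all of LPS, with an adjusted p of 0.960 from edgeR, and the call was lost without LPS 1 (0.324) and without LPS 2 (0.362). When this gene and 2 others of the same kind were taken out before the fit, 3 genes passed both thresholds, 2 higher and 1 lower with LPS.

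The other 5 genes with an adjusted p under 0.05 were all abundant and all higher with LPS, by less than 1.6-fold. Their mean levels rank from 48 to 227 among the 7875 genes, within the upper 2.88%. ENSRNOG00000057078 had 884 and 993 CPM with LPS, against 608 and 633 CPM in Control. On average this was 938 ± 76.6 CPM with LPS and 620 ± 17.5 CPM in Control (SD, n = 2 libraries each). Its log2 fold change was 0.59 (SE 0.096, 95% interval 0.40 to 0.79, adjusted p = 0.00928 from edgeR), a 1.51-fold rise.

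ENSRNOG00000014288 is among the 50 most abundant genes of these cells, at rank 48. It had 3017 and 2803 CPM with LPS, against 2210 and 2186 CPM in Control. The gap between the groups was larger than that between the libraries of either group. Averages were 2910.3 ± 151 CPM with LPS and 2198 ± 16.7 CPM in Control (SD, n = 2 libraries each). The log2 fold change was 0.41 (SE 0.069, 95% interval 0.26 to 0.55, adjusted p = 0.0116 from edgeR), which is 1.32-fold, the smallest change among the 8 genes. Its upper limit lies under the 0.68 that a 1.6-fold change takes on this scale.

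The last 3 of these genes had similar sizes of change. The fourth gene by p had 804 and 772 CPM with LPS, against 541 and 531 CPM in Control, higher by 0.56 on the log2 scale with an SE of 0.097 and an edgeR adjusted p of 0.0116. The seventh had 966 and 907 CPM with LPS, against 670 and 661 CPM in Control, higher by 0.50 on the log2 scale with an SE of 0.096 and an edgeR adjusted p of 0.0315. The eighth had 969 and 1212 CPM with LPS, against 719 and 748 CPM in Control, higher by 0.57 on the log2 scale with an SE of 0.114 and an edgeR adjusted p of 0.0462. In each of them the Control libraries were closer to each other than the LPS libraries were.

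All 5 genes kept their direction with any 1 library left out, but not their adjusted p. For ENSRNOG00000057078 the adjusted p from edgeR was 0.0824 without Control 1, 0.0529 without Control 2, 0.0135 without LPS 1 and 0.169 without LPS 2. For ENSRNOG00000014288 it was 0.0837 without Control 1, 0.134 without Control 2, 0.242 without LPS 1 and 0.0393 without LPS 2. The fourth gene ran from 0.0824 to 0.203 and the seventh from 0.133 to 0.313, so neither passed without any one of the 4 libraries. The eighth passed without LPS 1 (adjusted p = 0.0184 from edgeR), and not without LPS 2 (0.730), Control 1 (0.303) or Control 2 (0.181). In such a fit the single library left in a group is assumed to vary like the other groups.

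The tools differ in which of the 8 genes they call. Of these genes, 4 had an adjusted p under 0.05 by edgeR, DESeq2 and limma voom alike. These were ENSRNOG00000047737, which was lower with LPS, and ENSRNOG00000057078, ENSRNOG00000014288 and the fourth gene by p, which were higher. DESeq2 gave 4 genes with an adjusted p under 0.05 and limma voom gave 5, and all of them were among the 8. With the 4 libraries of the comparison alone, edgeR gave 3, again all among the 8.

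The pretreated cells, which also received LPS, are given beside these genes as values, since each comparison with Control would rest on the same Control libraries. For ENSRNOG00000014288 the 2 libraries with THC had 2417 and 2615 CPM and the 2 with THC-COOH had 2786 and 2465.0 CPM, all above both Control libraries and below both LPS libraries. Of the 5 abundant genes that were higher with LPS, 4 had all 4 pretreated libraries above both Control libraries. The exception was ENSRNOG00000057078, at 557 and 547 CPM with THC, 754 and 683 CPM with THC-COOH, and 608 and 633 CPM in Control. In 3 of the 5 genes all 4 pretreated libraries lay below both LPS libraries. The 5 genes were picked for high LPS and low Control values, which favors both counts. The share over all genes tested was not taken. The DEG that rose had 10.9 and 26.3 CPM with THC, 14.7 and 14.3 CPM with THC-COOH, and 8.05 and 7.79 CPM in Control. ENSRNOG00000047737 was low in LPS alone and with THC-COOH (3.93 and 3.29 CPM), and at 64.7 and 40.1 CPM with THC.

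**Figure D2:**
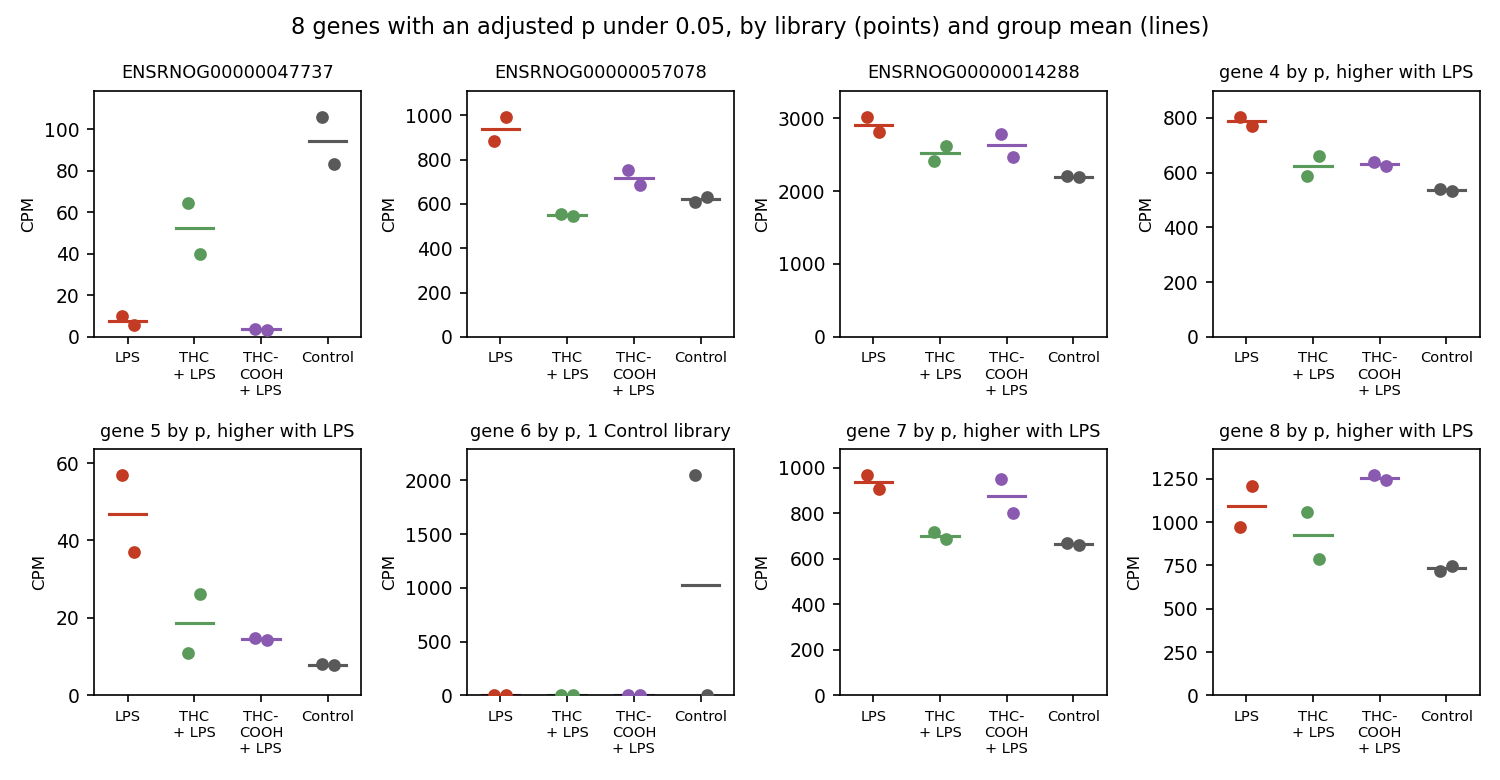
Level in CPM (y axis, from 0) of the 8 genes with an adjusted p under 0.05, in order of p, in cells with LPS, THC + LPS and THC-COOH + LPS and in Control cells (x axis). Each point is 1 library and each line the mean of the 2 libraries. The LPS points of ENSRNOG00000014288, at 3017 and 2803 CPM, lie above all others of that gene, and the sixth panel shows a single Control library at 2047 CPM with every other library near 0.

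The size of the differences fell steadily with expression level. In the 832 genes under 10 CPM the median absolute log2 fold change was 0.50, and in the 2318 genes from 10 to 30 CPM it was 0.31. It was 0.19 in the 2860 genes from 30 to 100 CPM and 0.13 in the 1293 genes from 100 to 300 CPM. In the 419 genes from 300 to 1000 CPM it was 0.089, and in the 153 genes of 1000 CPM and above it was 0.072. The median standard error fell in the same way, with 0.745 in the lowest class and 0.0737 in the highest. Low genes thus had large differences and large errors, and a fold change above 1.6 was mostly found where counts were few.

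Genes with a fold change above 1.6 numbered 780, or 9.90% of those tested, 414 higher and 366 lower with LPS. Of the genes under 10 CPM 39.4% were past this fold, and of those from 10 to 30 CPM 15.3%. Above this the share fell to 3.04% from 30 to 100 CPM and to 0.464% from 100 to 300 CPM. It was 0.955% from 300 to 1000 CPM, and none of the 153 most abundant genes reached it. The share of genes with an unadjusted p under 0.05 went the other way. It was 4.45% under 10 CPM, 5.26% from 10 to 30 CPM, 6.89% from 30 to 100 CPM, 10.6% from 100 to 300 CPM, 10.3% from 300 to 1000 CPM and 18.3% at 1000 CPM and above. Both directions were found at each level: in the highest class 15 of these genes were higher and 13 lower with LPS.

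The precision of the comparison sets what can be said of a gene that did not pass. The 95% interval of the log2 fold change lay wholly inside a 1.6-fold change in 2846 of 7875 genes (36.1%). No interval could be estimated for 7 genes under 30 CPM, which had no count in LPS or none in Control, and they are counted as not inside. The interval lay inside a 1.6-fold change for 99.3% of the genes of 1000 CPM and above, 97.1% from 300 to 1000 CPM and 89.9% from 100 to 300 CPM. From 30 to 100 CPM the share was 39.2%, from 10 to 30 CPM it was 0.129%, and under 10 CPM it was 0. The median half-width of the interval was 0.15 on the log2 scale in the most abundant class and 1.54 in the lowest. In the 3150 genes under 30 CPM the interval lay inside a 1.6-fold change in 3, and at this depth their p alone does not tell an unchanged gene from one with such a change. These intervals use the spread pooled over all 8 libraries.

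**Figure D3:**
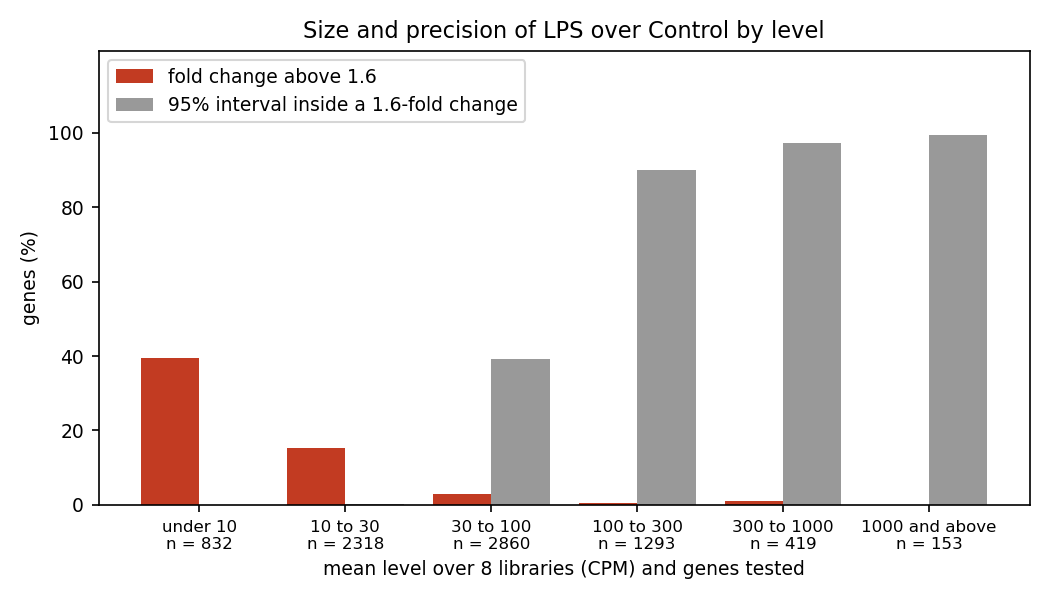
Share of genes (y axis, %) in 6 classes of mean level in CPM (x axis, with the number of genes in each). Red bars give genes with a fold change above 1.6 between LPS and Control, and gray bars give genes whose 95% interval lay inside a 1.6-fold change. Red bars go from 39.4% in the lowest class to 0 in the highest, while gray bars go from 0 to 99.3%.

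The most abundant transcripts of these cells changed little. The 10 genes with the highest mean levels, from 4832 to 13350.0 CPM, had log2 fold changes between −0.056 and 0.080, 6 of them positive and 4 negative. The smallest adjusted p among them was 0.756 from edgeR. In the 100 most abundant genes the log2 fold changes ran from −0.30 to 0.41, and the interval of each lay inside a 1.6-fold change. Of these 100 genes, 20 had an unadjusted p under 0.05 from edgeR, against 7.16% of all genes tested. An adjusted p under 0.05 was reached by 1 of them, ENSRNOG00000014288.

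As observed, differences between single LPS and Control libraries were close in size to those between the 2 libraries of a group. Among 3131 genes with a mean raw count of at least 50, the median absolute log2 ratio between an LPS and a Control library was 0.165 and 0.163 for LPS 1 and 0.182 and 0.178 for LPS 2. Between the 2 LPS libraries it was 0.157, and between the 2 Control libraries it was also 0.157. Counting error alone would give a median of 0.154 between the 2 LPS libraries and 0.144 between the 2 Control libraries. Between an LPS and a Control library it would give 0.139 and 0.138 for LPS 1, and 0.159 and 0.158 for LPS 2. Each observed median lay above its own counting value, and by more between an LPS and a Control library than within either group. This excess was not tested. A ratio past 1.6-fold was seen in 86 of these genes between the 2 LPS libraries and in 59 between the 2 Control libraries. Between LPS and Control libraries such genes numbered 71 and 53 for LPS 1, and 120 and 114 for LPS 2, the library of the lowest total. The share of all counts that would have to move to another gene to make 2 libraries alike was 6.49% to 7.12% between LPS and Control, 6.13% within LPS and 6.32% within Control. No test was made of this difference, since with 2 libraries in each group an exact permutation test (two-sided) gives p = 0.333 at the least.

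The same comparison was made by level. From 100 to 300 CPM the median absolute log2 ratio was 0.165 to 0.176 between an LPS and a Control library, 0.155 within LPS and 0.153 within Control. At 1000 CPM and above it was 0.0751 to 0.112 between the groups, 0.0745 within LPS and 0.0590 within Control. In both classes all 4 pairs of an LPS and a Control library lay above both pairs within a group. At 1000 CPM and above the margin was narrow, with 0.0751 as the lowest between groups and 0.0745 within LPS. The 4 pairs share libraries, and no test was made. In the other 4 classes the values between and within groups overlapped.

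**Figure D4:**
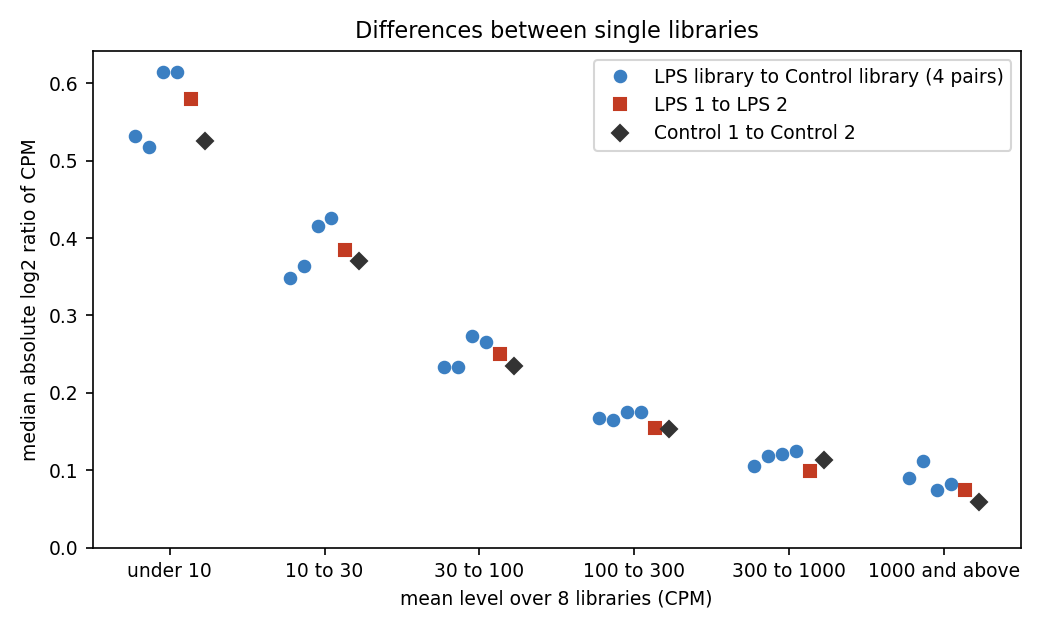
Median absolute log2 ratio of CPM between 2 single libraries (y axis, from 0) in 6 classes of mean level (x axis, CPM). Blue circles are the 4 pairs of an LPS and a Control library, red squares the 2 LPS libraries and black diamonds the 2 Control libraries. All pairs fall together with the level, and blue lies above both other symbols only from 100 to 300 CPM (0.165 to 0.176) and at 1000 CPM and above (0.0751 to 0.112). In the highest class the margin is narrow, the LPS pair being at 0.0745.

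Among the 3131 genes with a mean raw count of at least 50, 26 had a fold change above 1.6, 11 higher and 15 lower with LPS. Of these, 25 had an unadjusted p under 0.05 and 1 an adjusted p under 0.05 from edgeR, the gene carried by Control 1. In 10 of the 26 the 2 libraries of LPS, of Control or of both also differed by more than 1.6-fold. The remaining 16, 8 higher and 8 lower with LPS, had log2 fold changes between 0.68 and 0.95 in size, and none of them passed the adjusted p. Their groups did not overlap, which the choice all but fixes, since groups differed by over 1.6-fold and libraries of a group by less. Over all genes tested, the groups did not overlap in 35.9%.

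The most abundant genes past 1.6-fold were 4 of the class from 300 to 1000 CPM, and in 3 of them the libraries of a group disagreed. The gene that was higher had 298 and 1288 CPM with LPS, against 268 and 301 CPM in Control, so that LPS 2 alone stood out (adjusted p = 0.165 from edgeR). Of the lower ones, the first had 40.9 and 44.5 CPM with LPS, against 49.6 and 1548 CPM in Control (adjusted p = 0.255 from edgeR). Its high libraries were Control 2 and 1 of the 2 with THC before LPS, at 1496 CPM, and these set its mean level. The next had 435 and 106 CPM with LPS, against 722 and 433 CPM in Control (adjusted p = 0.451 from edgeR). The fourth gene of the class had 409 and 328 CPM with LPS, against 515 and 705 CPM in Control, with groups apart and an adjusted p of 0.273 from edgeR.

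Genes counted in one group alone mostly had few counts. Of the 9848 listed genes, 112 had counts with LPS and none in Control, and 96 had counts in Control and none with LPS. The counts of both libraries summed to more than 3 in 38 of the genes counted with LPS alone and in 25 of those counted in Control alone. The sums reached 10 or more in 2 genes with LPS alone, the highest being 28 counts, all in LPS 1. In Control alone they did so in 1 gene, with 31 counts, of which 30 were in Control 2. No gene without a count in Control had more than 4 counts in both LPS libraries, and no gene without a count in LPS had more than 3 in both Control libraries. At these totals a gene at 0 in one group was not detectable there, which does not show that it was absent.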

How the data were processed

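EGCs of the line EGC/PK060399egfr were profiled by bulk MARS-seq (4 groups, 8 libraries, 2 per group). The authors' results text gives 4 h of LPS, whereas the methods and labels give 24 h. The submitters' processing notes name HTSeq, STAR 2.7.3a, cutadapt and bcl2fastq 2.20.0.422, and the build Rnor_6.0. No source used here gives the annotation release or how molecular identifiers were treated. The deposited values used are raw counts per gene, not normalized. The second deposited table, the same counts divided by 1 factor per library, was not used.

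Counts were analyzed with edgeR 4.0.16 (R 4.3.3): genes with a raw count above 10 in 1 of 8 libraries, TMM factors from 0.986 to 1.02, quasi-likelihood test, 1 coefficient per group, LPS minus Control, Benjamini-Hochberg adjustment over 7875 genes. The spread was pooled over all 8 libraries (common biological coefficient of variation 0.0904, 4 residual and 19.7 prior degrees of freedom). Fitted fold changes use a prior count of 0.125. The standard error is that of the fitted contrast, with the quasi-likelihood variance, and the 95% interval uses the t distribution of the moderated degrees of freedom. Ratios of single libraries use log2 CPM with a prior count of 2. The fit was tested on simulated data with known changes. In each group the 2 libraries differed by more than counting noise (chi-square per degree of freedom 1.95 to 2.80). They were counted as separate samples, but such a spread may be technical and does not show separate cultures.

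The libraries, gene lists and rules were chosen with earlier results of these data known. The rule for naming genes, with identifiers unpaired (0 of 47357 reference genes matched), printed at most 2 identifiers per direction, those of smallest p with an adjusted p under 0.05, leaving out a gene with over 90% of its summed CPM in 1 library. Other genes were described without identifiers after their values were seen, and 19 gene lists were not run. Alternatives were DESeq2 size factors, filterByExpr, no filter, DESeq2 1.42.0, limma voom (limma 3.58.1), the 4 libraries alone, a replicate block, no minimum fold and each library left out. The refit without genes of a single library (the same 90%, and 50 or more counts there) was chosen after the data were seen. Figures used matplotlib 3.10.9 in Python 3.11.15.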

Additional observations from a re-analysis of the deposited data

How the results depend on the processing

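The number of DEGs of LPS against Control, 3 by edgeR, was also 3 with DESeq2 size factors, with filterByExpr and without the genes of a single library, and 2 with the 4 libraries alone. It was 11 with no filter, where 9839 genes were tested, 1 with DESeq2, 1 with limma voom and 8 with the adjusted p alone, which applies 1 criterion fewer. With 1 library left out it ran from 2 to 10: 5 without Control 1, 2 without Control 2, 10 without LPS 1 and 3 without LPS 2. The count without LPS 1 rests on LPS 2, the shallowest library. ENSRNOG00000047737 was a DEG in each of these. An equal number did not always mean the same genes. With filterByExpr, and without the genes of a single library, 2 of the 3 DEGs of the main fit were kept. In both, 2 DEGs were higher and 1 lower with LPS. A fit with a replicate block gave 8, with the 3 DEGs of the main fit among them. The labels give the libraries only a number, and the deviations of same-numbered LPS and Control libraries from their group means had a correlation of 0.0388 across genes, so this fit is no paired test. The gene carried by Control 1 reversed without it, and with 1 library left out its log2 fold change ran from −12.836 to 2.615. No other gene of the 8 changed direction in any alternative. Over all genes, the absolute log2 fold change had a median of 0.204, which was 0.251 with no filter and 0.224 to 0.267 with 1 library left out. Apart from the adjusted p alone, the cause was not tested. The alternatives planned for gene lists could not be run without symbols. Depth limits the comparison most under 30 CPM.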

Other observations

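Between an adjusted p of 0.05 and 0.1 stood 2 genes, both higher with LPS. One was abundant, with 536 and 540 CPM with LPS against 376 and 384 CPM in Control, higher by 0.50 on the log2 scale with an SE of 0.108 and an edgeR adjusted p of 0.0800. Its libraries agreed closely within each group. The other was low, with 25.0 and 106 CPM with LPS against 12.1 and 7.79 CPM in Control, higher by 2.57 on the log2 scale with an SE of 0.595 and an edgeR adjusted p of 0.0570, and its 2 LPS libraries differed by more than 1.6-fold.

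Of the 26 genes with an unadjusted p under 0.001, 15 were higher and 11 lower with LPS. Those higher had a median level of 185 CPM and a median log2 fold change of 0.59 in size, and in 3 of the 15 a pair of libraries of 1 group differed by more than 1.6-fold. Those lower had a median level of 81.0 CPM and a median of 2.56 in size, and in 7 of the 11 such a pair differed by more than 1.6-fold. Over all genes tested, 2011 of 7875 had such a pair. The values of the 26 are descriptions of genes picked by their p, and the difference between the directions was not tested.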
